A study of Mus musculus with 5 samples.

Results

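The enzymes that write and erase N6-methyladenosine (m6A) on RNA were described across the 14 cell classes found with enough cells in mouse cortex after traumatic brain injury (TBI). The 10 genes were chosen by symbol from the gene column of the deposited matrices, and all 10 were found among 55450 genes. Single cells came from cortex of C57BL/6J mice, in 1 sham library and 1 library each at 1, 3, 7 and 14 days after TBI, prepared with the 10x Genomics 3′ v3 chemistry. For the 4 TBI libraries the sample titles state that tissue was taken at the site of injury, while the sham title states no site. The number and age of the mice behind a library are not given in the sources used here. Cells are not replicates of a condition, so injured and sham libraries were set side by side with counting intervals and no test. Differences between cell classes were tested, because each class was measured in several libraries.

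m6A is the most common internal mark of messenger RNA. METTL3, the catalytic methyltransferase, works as a heterodimer with METTL14, which helps to hold the RNA. WTAP brings the dimer to nuclear speckles, and VIRMA, ZC3H13 and the RNA-binding proteins RBM15 and RBM15B form the rest of the complex and steer it to its sites. METTL16 is a separate methyltransferase that acts on the U6 small nuclear RNA and on hairpins of the Mat2a transcript, and so on the supply of the methyl donor. FTO and ALKBH5 are the known erasers, and FTO also removes the mark next to the cap (m6Am).

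After filters on UMIs, genes, mitochondrial share and doublets, 52913 of 60574 barcodes were kept. A UMI is 1 captured RNA molecule. The depth rose with the time after injury, from a median of 745 UMIs per kept cell in sham to 1700, 3175, 7106 and 8329 at days 1, 3, 7 and 14. Libraries shared 27 to 59 barcodes per pair, at most 0.483% of the smaller library. All 35 clusters could be named from markers and fell into 15 classes, of which 14 held at least 50 cells in a library. No cluster carried the markers of mature neurons, so the neural classes are glia, precursors and neuroblasts. Most clusters of microglia, astrocytes and oligodendrocytes were nearly of 1 library each (for example, 93.8% of the largest sham microglial cluster was sham), and their classes are compared as sums over clusters. The 10 genes took no part in the clustering.

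The genes lie on GRCm38 as follows in GENCODE release 21. Mettl3 spans chr14:52294841-52305128 on the minus strand and overlaps Tox4 on the other strand. Mettl14 spans chr3:123368297-123386108 (minus), Mettl16 chr11:74770830-74828525 (plus), Wtap chr17:12966796-12994169 (minus) and Virma chr4:11485958-11550684 (plus). Rbm15 spans chr3:107325421-107333673 (minus), Zc3h13 chr14:75284373-75344426 (plus), Alkbh5 chr11:60536381-60558512 (plus) and Fto chr8:91313525-91668439 (plus). Rbm15b spans chr9:106880918-106887428 (minus) and overlaps the protein-coding genes Manf, on the same strand, and Dcaf1. Its counts are therefore uncertain where the genes share exons.

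Mettl3 was the member with the largest fold between its highest and lowest library, and Alkbh5 was the eraser with the highest levels. The stretches before the RefSeq starts of both genes are shown. Each is 150 bases of GRCm38.p6, 5′ to 3′ on the gene's strand, with CpG in capitals. The Mettl3 stretch is chr14:52305125-52305274 and holds 10 CpG. The Alkbh5 stretch is chr11:60537533-60537682 and holds 9 CpG. It lies inside the GENCODE gene span, which begins upstream of it at 60536381.
Mettl3: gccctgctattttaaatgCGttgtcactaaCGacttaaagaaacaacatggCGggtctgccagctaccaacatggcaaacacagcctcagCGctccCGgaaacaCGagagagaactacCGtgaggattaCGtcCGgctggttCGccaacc
Alkbh5: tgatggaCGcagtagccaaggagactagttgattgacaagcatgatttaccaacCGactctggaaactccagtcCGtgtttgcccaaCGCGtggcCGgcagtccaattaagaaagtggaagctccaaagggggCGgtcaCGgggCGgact
RefSeq promoters were at hand for 8 of the 10 genes (11 starts). In the 250 bases before the start they held 13 to 41 CpG with a median of 21, against a median of 6 over all 32851 promoters, 68.5% of which held fewer than 13. On either strand, the GC box GGGCGG was found in promoters of 4 of the 8 genes (32.7% of all promoters) and the ETS core CCGGAA in 3 (12% of all promoters). TATAAA (12.4% of all promoters), the NRF1 core CGCATGCG (1.55%) and the YY1 motif ATGGCGGC (1.03%) were found in none of the 8. These matches only describe the letters.

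Every member was detected in every library. Levels are given in CPM, the UMIs of a gene over all UMIs of the same cells on the usual CPM scale, and since 3′ tags count each molecule once, they can be set side by side between genes. Over whole libraries, Alkbh5 (60.3 to 107.8 CPM), Wtap (47.4 to 86.2) and Zc3h13 (60.5 to 84.4) stood highest. Fto stood between 33.8 and 56.9 CPM, Rbm15 between 22.7 and 63.0, Mettl16 between 19.3 and 40.4 and Virma between 24.1 and 33.3. Mettl14 (12.8 to 22.5 CPM) and Rbm15b (11.7 to 21.9) were low in all libraries. Mettl3 stood at 49.6 CPM in sham, 28.7 at day 1, 12.9 at day 3, 14.2 at day 7 and 12.1 at day 14. The sham library was the highest for Mettl3, and its interval (45.2 to 54.2) did not touch that of any injured library.

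**Figure D1:**
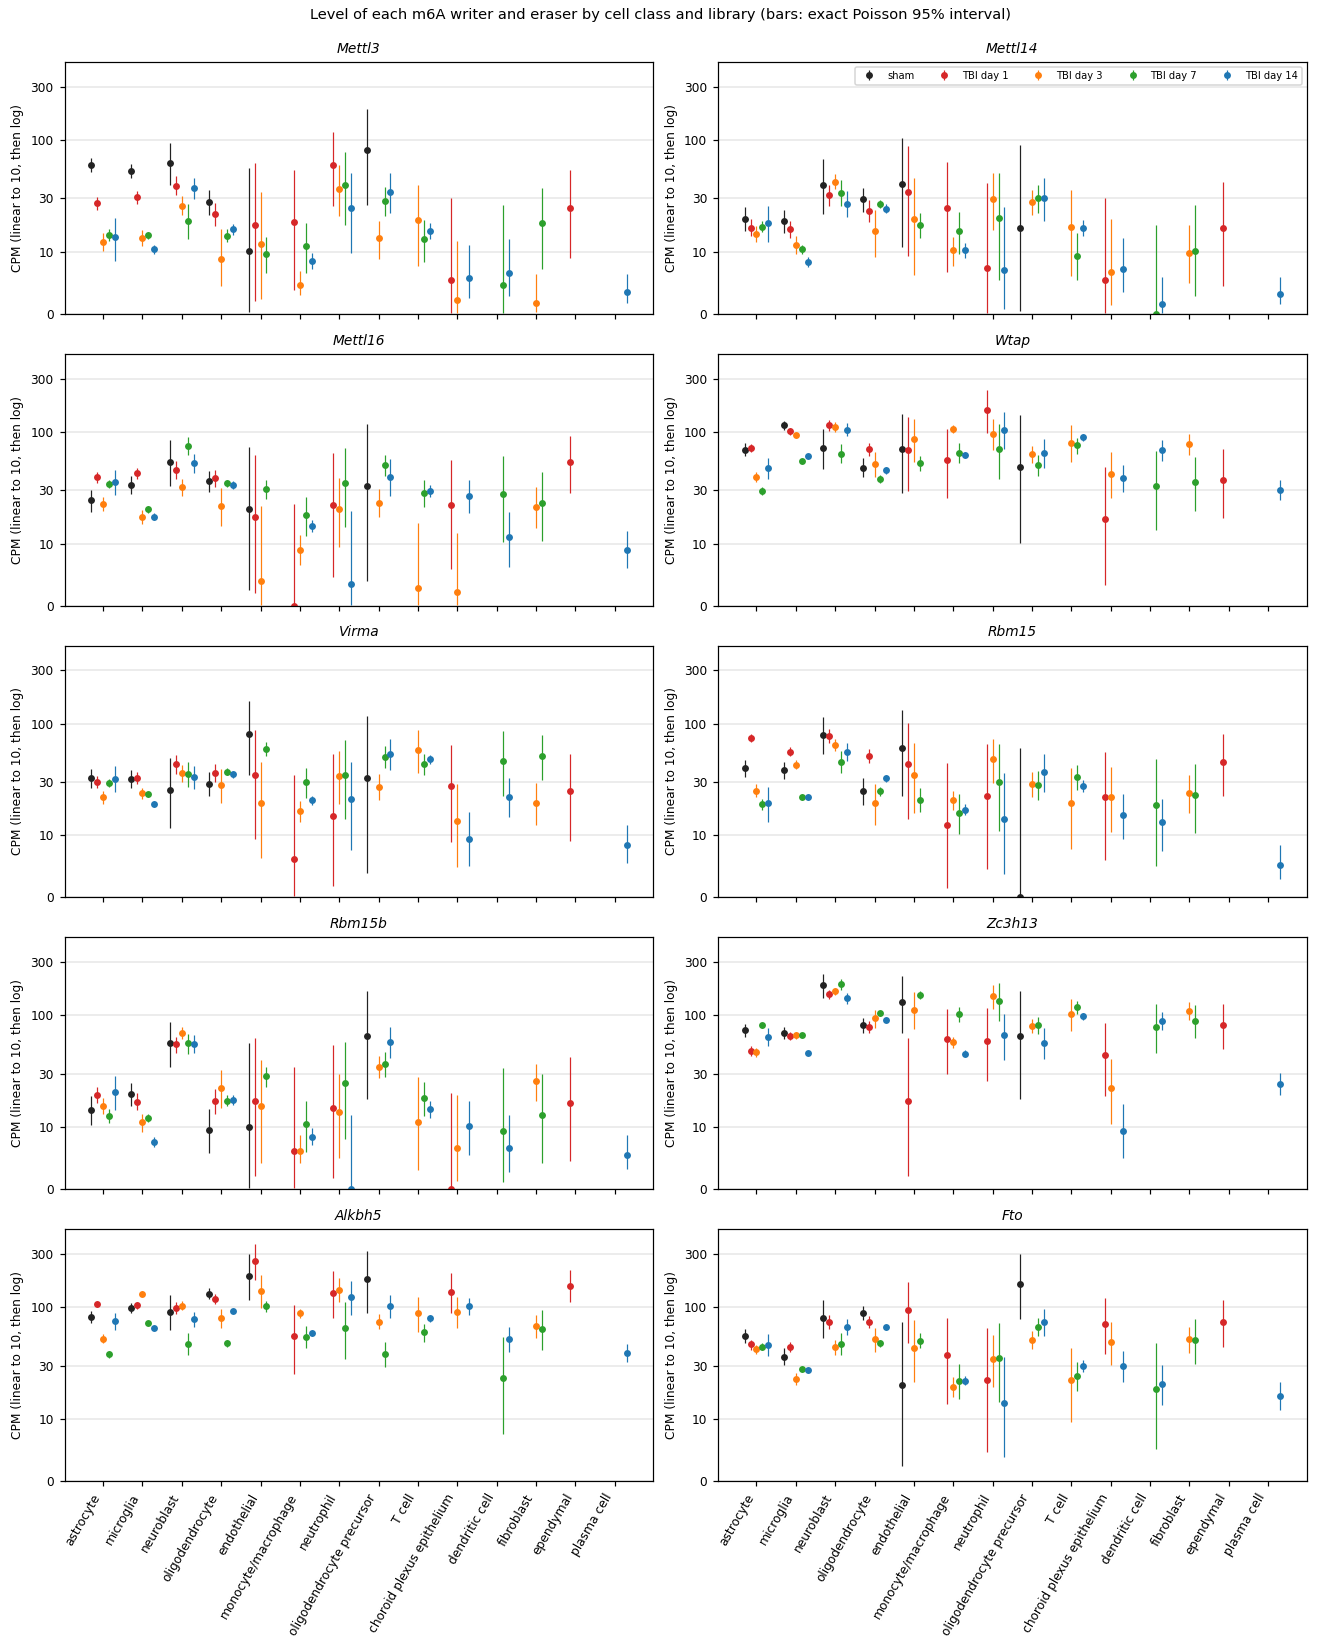
Level of each gene in CPM (vertical axis, linear up to 10 and logarithmic above) in the 14 cell classes (horizontal axis), 1 point per library with its exact Poisson 95% interval. Mettl3 in sham microglia (52.7 CPM) and sham astrocytes (60.2 CPM) stands above the same classes of every injured library, and Rbm15b in neuroblasts (54.9 to 70.0 CPM) stands above the microglia of every library.

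The catalytic writers were compared between 10 classes present in at least 3 libraries. UMIs were summed for each class in each library (42 sums), and edgeR's quasi-likelihood test set each class against the equal-weight mean of the other 9, with library as a term and p adjusted over 16166 genes. The libraries are different times after injury, and the spread of a gene was estimated over all classes together. The p-values therefore do not measure how steady the difference of a single class was over its libraries. Of 100 gene and class combinations, 32 passed an adjusted p of 0.05. Of these 32 calls, 9 held without any 1 library, 5 ended when 1 certain library was left out, and 18 ended when any of several was left out. TMM scaling moved the classes against each other by log2 shifts of -0.47 (oligodendrocyte precursors) to 0.36 (monocytes/macrophages), and 17 calls held both with scaling to class totals and with DESeq2.

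Neutrophils, short-lived granulocytes that enter injured tissue first, had the highest geometric mean of Mettl3 over libraries among the 10 classes (38.2 CPM, with neuroblasts next at 34.0). With single cells gated by markers, neuroblasts came first (36.0 CPM) and neutrophils next (33.3). Their Mettl3 level was 59.5 CPM at day 1, 36.5 at day 3, 39.9 at day 7 and 24.5 at day 14. The 4 values rest on 8, 16, 8 and 7 UMIs, and the class was the highest of its library for Mettl3 in 3 of 4 libraries. The difference from the mean of the other classes was 1.34 on the log2 scale (SE 0.27, adjusted p = 1.09e-04, edgeR), and it was 1.45 with scaling to class totals. It was called without any 1 library. Over sums of at least 200 cells, where neutrophils were 1 sum (day 3, 375 cells) assumed to vary like the other classes, it was 1.40 (adjusted p = 0.0523). In neutrophils 2 of 10 members were called higher and 1 lower, where 14.8% of all genes were higher and 16.0% lower. The other 2 were Wtap at 0.62 (SE 0.23, adjusted p = 0.0384) and Fto at -0.73 (SE 0.26, adjusted p = 0.0293). Wtap lost its call without day 1, 7 or 14 (adjusted p = 0.190, 0.0662 and 0.140), and Fto without the same libraries (adjusted p = 0.124, 0.0587 and 0.267). Fto also lost its call under scaling to class totals (-0.62, adjusted p = 0.0918) and with DESeq2 (-0.47, adjusted p = 0.261). Over sums of at least 200 cells, again the day 3 sum alone, Wtap stood at -0.026. Thinned to 500 UMIs per cell, 2.40% to 4.05% of neutrophils had a Mettl3 UMI, against 0.352% to 2.63% of monocytes/macrophages. Before thinning, these shares were 4.27% to 9.64% of neutrophils and 2.59% to 10.7% of monocytes/macrophages.

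Of the 10 tested classes, choroid plexus epithelium, the cells that secrete cerebrospinal fluid, had the lowest fitted Mettl3. It stood there at 5.48 CPM at day 1, 2.22 at day 3 and 5.79 at day 14, from 1, 1 and 8 UMIs. The difference from the other classes was -1.45 (SE 0.40, adjusted p = 0.00418, edgeR), and the call ended without day 1 (-1.25, adjusted p = 0.0584) or day 3 (-1.06, adjusted p = 0.101) and with DESeq2 (-1.18, adjusted p = 0.0677). Endothelial cells, which line the vessels, were also called lower for Mettl3 at -0.96 (SE 0.31, adjusted p = 0.0193), from 1, 2, 3 and 32 UMIs. That call ended without sham (-0.77), day 1 (-1.0), day 7 (-1.21) or day 14 (-0.89), at adjusted p of 0.100, 0.0588, 0.144 and 0.0585. In the order of the fitted levels the classes ran from neutrophils through neuroblasts, microglia, oligodendrocyte precursors, T cells, astrocytes, oligodendrocytes, monocytes/macrophages and endothelial cells to choroid plexus epithelium. Of the 9 pairs of neighbours in that order, only neutrophils and neuroblasts differed (0.73, SE 0.30, adjusted p = 0.0413, edgeR), and 24 of all 45 pairs of classes differed.

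Neuroblasts, migrating precursors of neurons, were called higher for 6 of 10 members, where 32.5% of all genes were higher. For 1 member they were lower, where 22.9% of all genes were. The 6 were writers or partners, as are all members but Alkbh5 and Fto. The largest difference was that of Rbm15b, which stood in neuroblasts at 57.0 CPM in sham and 54.9, 70.0, 56.2 and 55.4 at days 1, 3, 7 and 14. Its difference from the other classes was 1.52 (SE 0.20, adjusted p = 1.55e-08, edgeR), and 1.96 with scaling to class totals. Neuroblasts held the highest Rbm15b of all classes in 3 of 5 libraries, and oligodendrocyte precursors in the other two. The neuroblast level lay above that of microglia, astrocytes and oligodendrocytes in all 5 libraries.

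Zc3h13, which anchors the writer complex in the nucleus, stood in neuroblasts at 185.4 CPM in sham and 154.6, 163.7, 189.9 and 142.9 at days 1, 3, 7 and 14. It was higher in neuroblasts than in any other class in all 5 libraries, with a difference of 0.86 (SE 0.16, adjusted p = 2.51e-05, edgeR). Rbm15 was likewise highest in neuroblasts in 5 of 5 libraries, at 45.6 to 79.9 CPM, with a difference of 0.68 (SE 0.20, adjusted p = 0.00431). These calls and that of Rbm15b held under all alternatives tried. Mettl14 stood at 27.0 to 42.4 CPM (difference 0.65, SE 0.17, adjusted p = 0.00109) and Mettl16 at 31.9 to 75.1 CPM (0.63, SE 0.22, adjusted p = 0.0148). The neuroblast level of Mettl3 was 62.7 CPM in sham, then 39.1, 25.9, 18.9 and 37.1 at days 1, 3, 7 and 14, a difference of 0.53 (SE 0.18, adjusted p = 0.00964). Without a filter on low counts the 3 differences were 0.53, 0.51 and 0.41, at adjusted p of 0.0753, 0.0601 and 0.210. Mettl16 also lost its call over sums of at least 200 cells (0.32, adjusted p = 0.142) and with no library term (adjusted p = 0.0585), as did Mettl3 with no library term (adjusted p = 0.0605). Alkbh5 was the member called lower, at -0.62 (SE 0.18, adjusted p = 0.00335), with a value of -0.22 (adjusted p = 0.265) under scaling to class totals and -0.46 (adjusted p = 0.0595) without day 14.

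The neuroblasts fell into 3 clusters. In the 2 clusters with at least 50 cells in all 5 libraries, Rbm15b stood at 46.8 to 90.7 CPM and at 46.8 to 82.3 CPM. In the third it stood at 13.6 CPM in sham (1 UMI), 54.5 at day 1 and 52.8 at day 3. The summed level of the listed cell division genes in neuroblasts was 5629 to 8615 CPM. It was 146.6 to 889 CPM in astrocytes, 780.6 to 2973 in oligodendrocyte precursors and up to 2646 in oligodendrocytes. The list includes Stmn1, and the sum is not a count of dividing cells. The part of dividing cells in the member differences was not tested.

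Oligodendrocyte precursors shared the high Rbm15b of neuroblasts. It stood at 65.0 CPM in sham, 34.6 at day 3, 36.7 at day 7 and 57.7 at day 14, with a difference of 0.95 (SE 0.25, adjusted p = 0.00236, edgeR). Over sums of at least 200 cells, where the class was 1 sum (day 3, 433 cells), the value was 0.57 (adjusted p = 0.346). It was the member called higher there (1 of 10, all genes 24.2%), and Alkbh5 (-0.68), Wtap (-0.65) and Zc3h13 (-0.63) were called lower (3 of 10, all genes 14.6%). These 3 lower calls ended under scaling to class totals, at -0.13, -0.12 and -0.13 (adjusted p = 0.657, 0.662 and 0.783). Without 1 library, Alkbh5 lost its call when day 3 (-0.58) or day 7 (-0.51) was left out, Wtap without sham (-0.54), day 3 (-0.59), day 7 (-0.73) or day 14 (-0.54), and Zc3h13 without sham (-0.54), day 7 (-0.57) or day 14 (-0.56). Fto was highest in oligodendrocyte precursors in 3 of their 4 libraries. It stood there at 162.6 CPM in sham (10 UMIs) and 51.0, 66.8 and 74.1 at days 3, 7 and 14.

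Oligodendrocytes, the myelin-forming cells, were the only class called higher for the eraser Fto. It stood there at 88.5 CPM in sham and 73.7, 51.5, 47.5 and 66.2 at days 1, 3, 7 and 14. The difference from the other classes was 0.73 (SE 0.15, adjusted p = 6.07e-05, edgeR) and held under all alternatives tried, at 0.60 to 0.87. Oligodendrocyte precursors had the higher geometric mean of Fto (80.1 against 63.8 CPM), with a difference of 0.42 that was not called. Fto differed in 16 of 45 pairs of classes, and in 0 of 9 pairs of neighbours in the fitted order. Mettl14 (0.55, SE 0.16, adjusted p = 0.00411) and Zc3h13 (0.39, SE 0.17, adjusted p = 0.0483) were also called higher in oligodendrocytes, 3 of 10 members beside 29.5% of all genes. Mettl14 lost its call without day 7 (0.44, adjusted p = 0.0941), and Zc3h13 without day 7 (0.45, adjusted p = 0.0785) or day 14 (0.36, adjusted p = 0.155).

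Among the immune classes, T cells were higher for 3 of 10 members, where 22.2% of all genes were higher. These were the complex partners Virma, Zc3h13 and Wtap, while the partners Rbm15 and Rbm15b were not called. Virma, the large scaffold of the complex, stood in T cells at 57.9 CPM at day 3, 43.4 at day 7 and 48.0 at day 14. The difference was 0.91 (SE 0.21, adjusted p = 6.75e-04, edgeR) and 0.79 (adjusted p = 0.0653) without day 14. Zc3h13 stood in T cells at 102.1, 117.9 and 97.9 CPM on the same days (0.65, adjusted p = 0.0131) and Wtap at 80.0, 75.5 and 89.0 CPM (0.60, adjusted p = 0.0316). Zc3h13 and Wtap lost their calls without day 3 (adjusted p = 0.0595 and 0.0589), day 7 (0.0534 and 0.337) or day 14 (0.400 and 0.216).

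Wtap, the adaptor of the complex, was called higher in all 4 immune classes tested, and not in neuroblasts (0.08). Its geometric mean was nonetheless 90.4 CPM in neuroblasts. In neutrophils it was 102.4, in microglia 81.5, in T cells 81.3 and in monocytes/macrophages 69.8. The Wtap differences were 0.62 in microglia (1 of 10 members, all genes 34.4%) and 0.63 in monocytes/macrophages (1 of 10, all genes 26.4%). They were 0.62 in neutrophils and 0.60 in T cells. None of the 4 calls was independent of single libraries: that of microglia ended without day 3 (0.32) or day 14 (0.42), and that of monocytes/macrophages without day 3 (0.12), day 7 (0.63) or day 14 (0.47). Under scaling to class totals the microglial value was 0.30 (adjusted p = 0.109), the monocyte/macrophage value 0.22 (adjusted p = 0.372) and the T cell value 0.48 (adjusted p = 0.0547), and the neutrophil call was kept (0.70, adjusted p = 0.00663). Wtap was called lower in astrocytes at -0.53, as was Alkbh5 at -0.54 (2 of 10 members, all genes 16.7%), and no member was called higher there (all genes 33.4%). Both astrocyte calls ended without day 3 (-0.26 and -0.28), day 7 (-0.43 and -0.51) or day 14 (-0.27 and -0.34). Rbm15b was called lower in monocytes/macrophages at -0.73 (SE 0.28, adjusted p = 0.0324; 1 of 10, all genes 14.3%), and without day 7 at -0.67 (adjusted p = 0.149).

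Alkbh5 was highest in endothelial cells. It stood there at 192.1 CPM in sham, 258.4 at day 1, 139.9 at day 3 and 101.6 at day 7, and endothelial cells were the highest class in 3 of these 4 libraries. The difference from the other classes was 0.58 (SE 0.20, adjusted p = 0.0333, edgeR; 1 of 10 members, all genes 15.3% higher and 6.97% lower) and 0.89 with scaling to class totals. The call ended without day 1 (0.46, adjusted p = 0.141) or day 7 (0.48, adjusted p = 0.324). Monocytes/macrophages held 55.7, 88.1, 54.3 and 58.7 CPM of Alkbh5 at days 1, 3, 7 and 14. In 16 of 45 pairs of classes Alkbh5 differed, and in 0 of 9 pairs of neighbours in the fitted order.

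Choroid plexus epithelium was called lower for 5 of 10 members, where 16.9% of all genes were lower. All 5 were writers or partners, as are all members but Alkbh5 and Fto. Zc3h13 stood there at 43.8, 22.2 and 9.41 CPM at days 1, 3 and 14, a difference of -1.68 (SE 0.32, adjusted p = 6.51e-05, edgeR) that was -1.05 (adjusted p = 0.0821) without day 14. Mettl14 (-0.99), Virma (-0.88) and Wtap (-0.71) were the other lower members beside Mettl3. Each of these 3 calls ended without day 3 (adjusted p = 0.364, 0.188 and 0.269) or day 14 (0.216, 0.696 and 0.120). Mettl14 and Wtap also lost theirs without day 1 (0.126 and 0.336), and Virma and Wtap without day 7 (0.0723 and 0.0843). The erasers were not called lower there: Alkbh5 stood at 91.0 to 136.9 CPM and Fto at 29.7 to 71.2 CPM. Nor were Mettl16 (-0.05), Rbm15 (-0.45) and Rbm15b (-0.81) called lower.

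**Figure D2:**
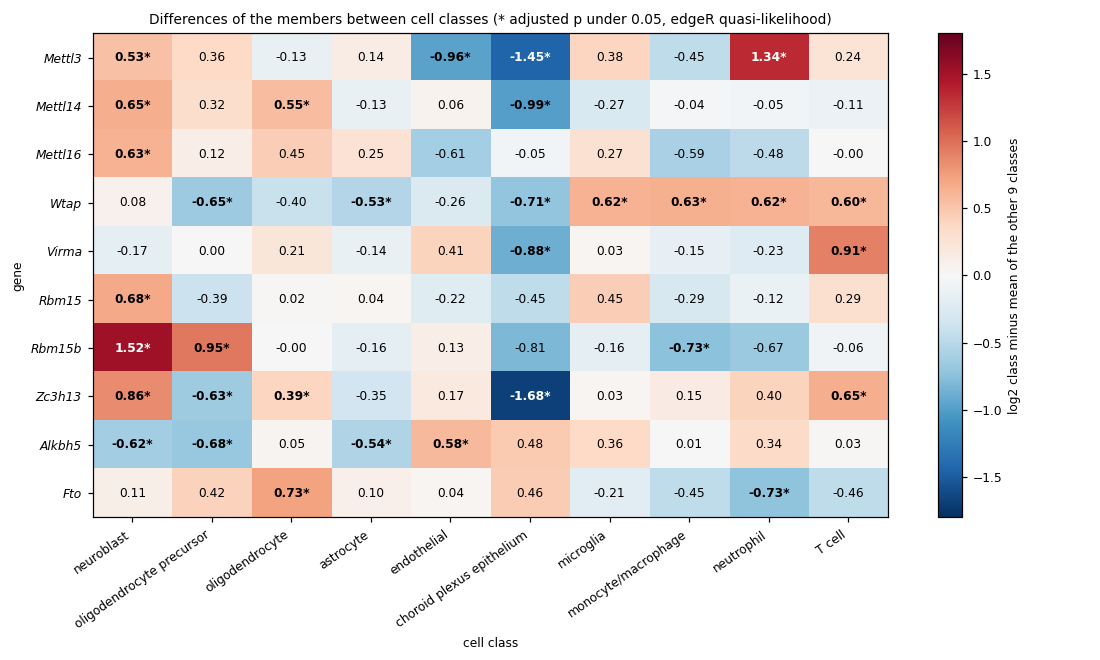
Log2 difference of each gene (rows) in each cell class (columns) from the mean of the other 9 classes, with an asterisk and bold type where the adjusted p was under 0.05 in edgeR's quasi-likelihood test. Rbm15b in neuroblasts (1.52) and Mettl3 in neutrophils (1.34) are the highest values, and Zc3h13 in choroid plexus epithelium (-1.68) the lowest.

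In classes held by fewer libraries, only levels could be given. Ependymal cells at day 1 stood at 156.3 CPM of Alkbh5, 53.5 of Mettl16 and 24.7 of Mettl3. Plasma cells at day 14 were the lowest class of their library for 5 of the 10 members, namely Virma, Rbm15, Mettl3 at 3.55 CPM, Alkbh5 at 39.0 and Wtap at 30.3. Their summed m6A reader genes (353.0 CPM) and methyl donor genes (88.3 CPM) were also the lowest of that library. Immunoglobulin genes such as Igkc and Ighg2b led this class. The share of all genes that were lowest there was not counted, so the 5 are not read as a trait of the members. Dendritic cells held 1 UMI of Mettl3 at day 7 and 8 at day 14 (6.57 CPM). In fibroblasts Mettl3 stood at 1.78 CPM at day 3 and 17.9 at day 7, from 2 and 7 UMIs.

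The injured libraries were then set against sham in the 6 classes with at least 50 sham cells. All these ratios share the 1 sham library. Mettl3 was below sham in all injured libraries of microglia, astrocytes, oligodendrocytes, neuroblasts and oligodendrocyte precursors. In microglia it stood at 52.7 CPM in sham, 30.7 at day 1, 13.4 at day 3, 14.0 at day 7 and 10.6 at day 14. The log2 ratios to sham were -0.78 (95% interval -1.06 to -0.50), -1.98 (-2.29 to -1.66), -1.91 (-2.15 to -1.67) and -2.32 (-2.56 to -2.08). The median of all measured genes in microglia was -0.06, -0.28, -0.37 and -0.53 on the same days. TMM scaling moved all microglial ratios up by 0.10, 0.32, 0.40 and 0.68, and those of Mettl3 were then -1.66, -1.51 and -1.64 from day 3 on. At day 7, 2.10% of measured genes had a lower ratio than Mettl3, and at day 14, 3.27% did.

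Astrocytes held 60.2 CPM of Mettl3 in sham, against 27.2, 12.3, 14.2 and 13.5 at days 1, 3, 7 and 14. The log2 ratios were -1.15 (-1.43 to -0.86), -2.29 (-2.63 to -1.95), -2.09 (-2.37 to -1.8) and -2.16 (-2.85 to -1.53). At days 7 and 14, 1.35% and 1.09% of measured astrocyte genes had a lower ratio. In oligodendrocytes it stood at 28.0 CPM in sham and 21.7, 8.85, 14.0 and 15.9, with ratios of -0.37 (-0.87 to 0.14), -1.66 (-2.74 to -0.72), -1.0 (-1.41 to -0.58) and -0.82 (-1.22 to -0.40). The oligodendrocyte sham level lay below that of sham microglia and astrocytes, and the interval at day 1 included 0.

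Neuroblast ratios of Mettl3 were -0.68 (-1.36 to 0.05), -1.28 (-1.95 to -0.54), -1.73 (-2.56 to -0.88) and -0.76 (-1.45 to -0.01), from 22 sham UMIs. In oligodendrocyte precursors Mettl3 stood at 81.3 CPM in sham, from 5 UMIs, against 13.2, 28.3 and 34.3 at days 3, 7 and 14. The ratio at day 3 was -2.62 (-4.01 to -0.90), and the intervals at days 7 and 14 included 0. Endothelial cells held 1 sham UMI of Mettl3, and their intervals all included 0.

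Several measures moved with the sham library. The shallowest libraries, sham and day 1, also had the highest Mettl3 levels, and depth and time after injury cannot be told apart. Thinned to 500 UMIs per cell, Mettl3 was found in 2.47% of sham microglia (2.04% to 2.97%) and in 1.53%, 0.668%, 0.680% and 1.01% at days 1, 3, 7 and 14. Before thinning the shares were 4.10%, 5.67%, 4.92%, 9.44% and 10.8%, so that the unthinned shares ran the other way. Over cells with at least 1000 UMIs the microglial log2 ratios were -0.68, -1.88, -1.81 and -2.22 and those of astrocytes -0.99, -2.09, -1.90 and -2.01. Immediate early and heat shock genes, which cell dissociation can induce, summed to 38598 CPM in sham microglia and 21116, 16801, 13458 and 8434 at days 1, 3, 7 and 14. Of 21 such genes 8, 13, 13 and 18 were at least 2-fold lower than sham, beside 10.5%, 21.1%, 14.8% and 25.1% of all measured microglial genes. In astrocytes the same sum was 1939 CPM in sham and 1339 to 4229 in the injured libraries. Malat1, a nuclear RNA, stood at 207352 CPM in sham astrocytes and 165833, 104193, 56939 and 33637 after injury, and at 39802 CPM in sham microglia and 14572 at day 14. Neat1, another nuclear-retained RNA, stood at 138.6 CPM in sham astrocytes and 2525 and 478.8 at days 1 and 3. Of 3 such RNAs measured in astrocytes, Malat1 included, 2, 2, 1 and 1 were at least 2-fold higher than sham at days 1, 3, 7 and 14. On the same days 0, 0, 1 and 1 of them were at least 2-fold lower. The part of these measures in the Mettl3 ratios was not tested.

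In the clusters of microglia, astrocytes and oligodendrocytes given here, which held cells of several libraries, sham cells again had the highest Mettl3. Endothelial cells, which were 1 cluster, differed: Mettl3 stood there at 10.1 CPM in sham (1 UMI) and 17.2 at day 1 (2 UMIs). In the main sham cluster of microglia, Mettl3 stood at 52.3 CPM in sham cells and 22.6 in the 232 cells of day 1. In the main day 1 cluster it stood at 31.3 CPM in day 1 cells, 73.3 in 110 sham cells and 11 in 87 cells of day 3. In the astrocyte cluster with cells of 4 libraries, it stood at 70.1 CPM in sham, 29.6 at day 1, 31.3 at day 3 (3 UMIs) and 38.3 at day 14 (6 UMIs). The oligodendrocyte cluster held 28.0, 21.5, 6.63 (7 UMIs) and 17.9 CPM (3 UMIs) in sham and at days 1, 3 and 14.

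**Figure D3:**
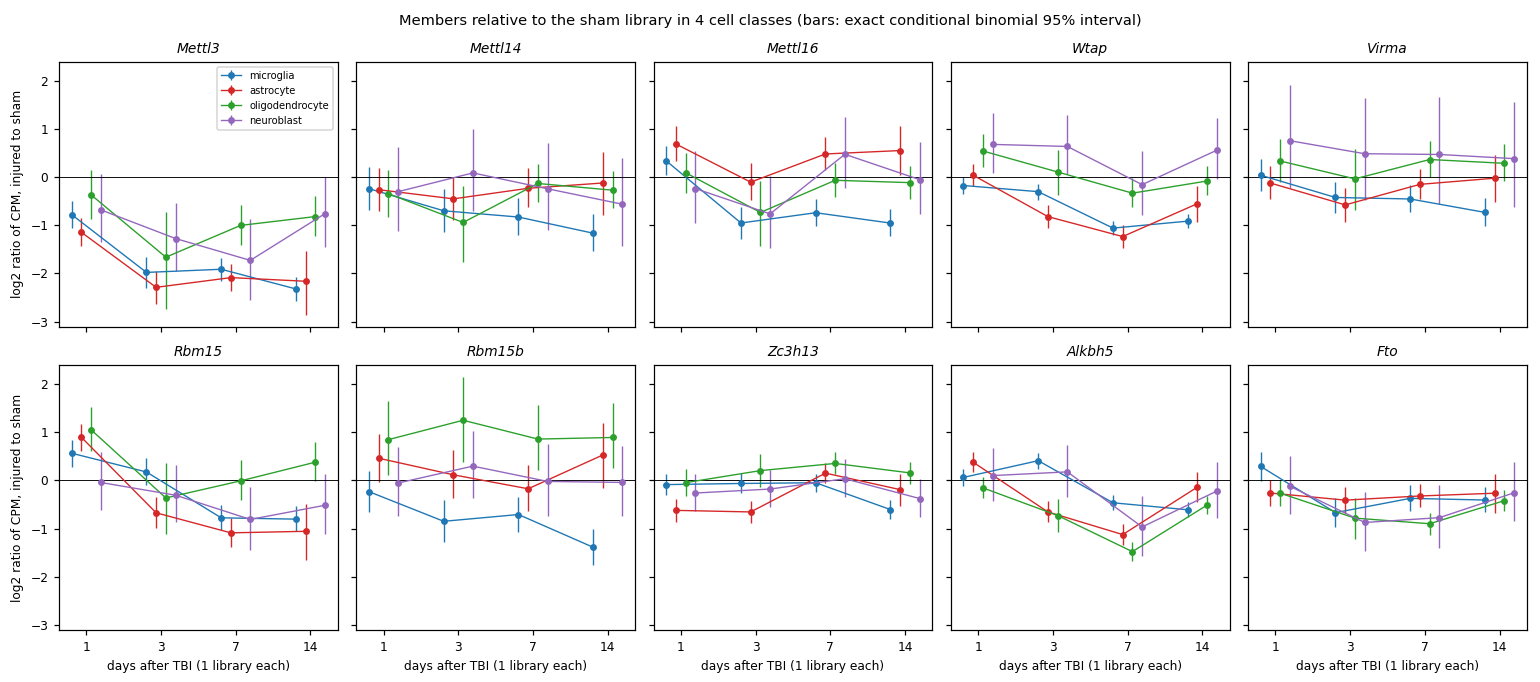
Log2 ratio of CPM of each gene to the sham library (vertical axis) by day after injury (horizontal axis) in microglia, astrocytes, oligodendrocytes and neuroblasts, with exact conditional binomial 95% intervals. Mettl3 lies below 0 in all 4 classes on all days, and Rbm15b lies above 0 in oligodendrocytes on all days (0.85 to 1.25).

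Mettl14, the partner in the catalytic dimer, moved less. It stood in astrocytes at 19.8 CPM in sham and 16.5, 14.4, 16.8 and 18.1 at days 1, 3, 7 and 14, with log2 ratios of -0.26 (-0.71 to 0.19), -0.45 (-0.89 to -0.00), -0.23 (-0.63 to 0.18) and -0.12 (-0.79 to 0.52). In microglia it stood at 18.8 CPM and 15.9, 11.5, 10.6 and 8.37, and the ratio at day 14 was -1.16 (-1.54 to -0.78). The share of Mettl3 among Mettl3 and Mettl14 UMIs does not depend on how libraries are scaled. In sham astrocytes it was 75.3% (exact binomial 95% interval 69.6% to 80.4%, of 259 UMIs). At days 1, 3, 7 and 14 it was 62.3% (56.9% to 67.4%), 46.1% (39.8% to 52.4%), 45.8% (41.4% to 50.2%) and 42.6% (29.2% to 56.8%). In microglia it was 73.8% (68.0% to 79.0%) in sham and 65.9% (60.8% to 70.8%), 53.7% (47.7% to 59.6%), 57.0% (54.1% to 59.9%) and 55.8% (52.5% to 59.0%). The intervals of days 3, 7 and 14 lay below that of sham in both classes. In neuroblasts the share was 61.1% in sham, 54.7% at day 1, 38.0% at day 3, 36.0% at day 7 and 57.9% at day 14. In oligodendrocytes it was 48.8% in sham and 34.3% to 48.4% after injury, and only the interval of day 7 (30.8% to 37.9%) lay below that of sham (39.9% to 57.8%).

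**Figure D4:**
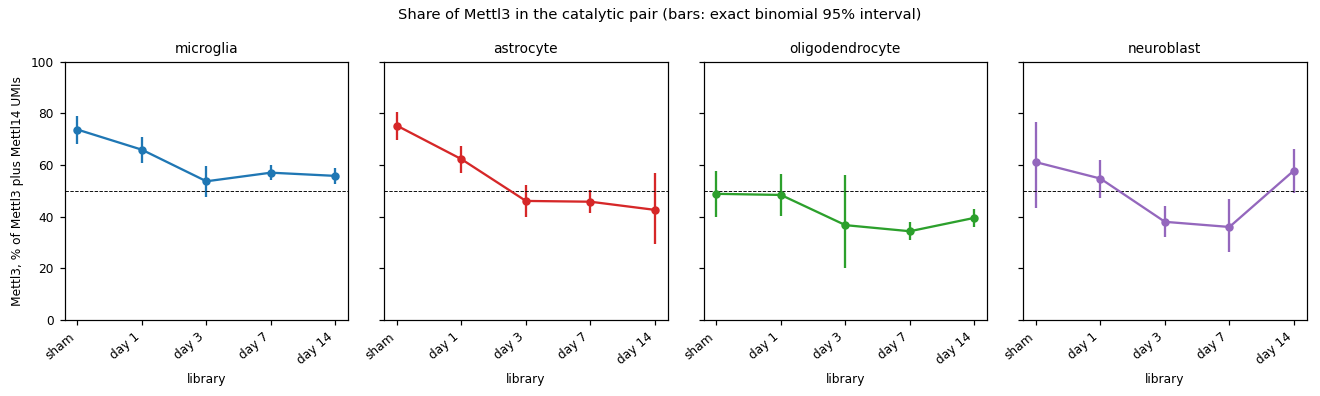
Share of Mettl3 among the UMIs of Mettl3 and Mettl14 (vertical axis, percent) by library (horizontal axis) in microglia, astrocytes, oligodendrocytes and neuroblasts, with exact binomial 95% intervals and a dashed line at 50%. In sham, microglia (73.8%) and astrocytes (75.3%) stand above every injured library of the same class.

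Mettl16 ran differently in astrocytes and microglia, which was not tested. In astrocytes it stood at 24.4 CPM in sham and 39.2, 22.7, 34.0 and 35.7 at days 1, 3, 7 and 14, and the ratios at days 1, 7 and 14 were 0.68 (0.32 to 1.06), 0.48 (0.14 to 0.84) and 0.55 (0.04 to 1.05). In microglia it stood at 33.7 CPM in sham and 42.5, 17.4, 20.2 and 17.4, with ratios of -0.95 (-1.28 to -0.62), -0.74 (-1.01 to -0.46) and -0.96 (-1.23 to -0.67) from day 3 on. The median of all measured microglial genes was -0.28, -0.37 and -0.53 on these days, and TMM scaling moved all microglial ratios by 0.32, 0.40 and 0.68. It moved astrocyte ratios by 0.21, 0.31 and -0.21 at days 1, 7 and 14. The microglial values lay below the astrocyte values on the last 3 days and above them in sham and at day 1.

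Counts of members at least 2-fold lower than sham take in Mettl3, which was the only one in astrocytes at days 1 and 3. It was also the only one in microglia and oligodendrocytes at day 3 and in neuroblasts at days 3 and 7. In astrocytes these were 1, 1, 4 and 2 of 10 members at days 1, 3, 7 and 14, beside 14.3%, 15.7%, 10.3% and 9.13% of all measured genes. In microglia they were 0, 1, 2 and 3 of 10, beside 10.5%, 21.1%, 14.8% and 25.1%. In oligodendrocytes they were 0, 1, 2 and 0, beside 5.17%, 14.9%, 5.57% and 3.68%, and in neuroblasts 0, 1, 1 and 0, beside 7.78%, 14.6%, 8.91% and 10.0%. In oligodendrocyte precursors, with 61494 sham UMIs in all, 3, 3 and 2 of the 9 members with a sham UMI were at least 2-fold lower at days 3, 7 and 14, beside 35.4%, 26.9% and 24.1%. At least 2-fold higher were 1 member in oligodendrocytes at day 1 (Rbm15, all genes 6.54%) and 1 at day 3 (Rbm15b, all genes 9.65%). Rbm15b passed the limit on low values there through its day 3 level only, so that count is not read. In microglia none was at least 2-fold higher (all genes 7.99%, 9.22%, 4.92% and 5.27%), nor in astrocytes (12.5%, 9.78%, 4.29% and 15.9%), neuroblasts (6.22%, 7.97%, 11.2% and 7.51%) or oligodendrocyte precursors (9.41%, 7.39% and 8.82%). Nor was any in oligodendrocytes at days 7 and 14 (4.87% and 3.92%). In endothelial cells, with 98928 sham UMIs in all, 2, 3 and 2 members were at least 2-fold lower (all genes 19.1%, 27.8% and 19.6%) and 1, 1 and 2 higher (13.9%, 10.8% and 10.4%). The 4 endothelial ratios whose intervals excluded 0 on the lower side were those of Zc3h13 at day 1, Virma at day 3 and Alkbh5 and Rbm15 at day 7.

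Among the partners, Rbm15, which recruits the complex to RNA, was above sham at day 1 in 3 glial classes and below it later in 2 of them. In astrocytes it stood at 40.1 CPM in sham, 74.5 at day 1, 25.2 at day 3, 18.9 at day 7 and 19.3 at day 14. The ratios were 0.89 (0.62 to 1.18), -0.67 (-0.99 to -0.35), -1.09 (-1.39 to -0.78) and -1.06 (-1.65 to -0.50). Microglia held 38.1 CPM of Rbm15 in sham and 56.2, 43.0, 22.2 and 21.8, with a ratio of 0.56 (0.29 to 0.85) at day 1 and -0.80 (-1.06 to -0.54) at day 14. In oligodendrocytes it stood at 24.8 CPM and 51.4, 19.3, 24.7 and 32.3, and only the ratio of day 1 excluded 0 (1.05, 0.61 to 1.51).

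Its relative Rbm15b ran differently. In oligodendrocytes it stood at 9.48 CPM in sham (21 UMIs) and 17.0, 22.5, 17.2 and 17.6 at days 1, 3, 7 and 14. The ratios were 0.85 (0.11 to 1.64), 1.25 (0.38 to 2.14), 0.86 (0.22 to 1.57) and 0.89 (0.26 to 1.60), and at day 14, 94.8% of measured genes had a lower ratio. In microglia it stood at 19.8 CPM in sham and 16.9, 11, 12.2 and 7.59, with ratios of -0.23 (-0.66 to 0.20), -0.85 (-1.28 to -0.41), -0.71 (-1.06 to -0.34) and -1.39 (-1.75 to -1.0). In neuroblasts all 4 intervals included 0.

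Wtap was below sham in astrocytes from day 3 on and in microglia at days 7 and 14. The microglial ratio at day 3 was -0.30 (-0.47 to -0.14), and 0.014 under TMM scaling. Microglia held 114.4 CPM of Wtap in sham and 101.3, 92.7, 54.9 and 60.7, and the ratios of days 7 and 14 were -1.06 (-1.21 to -0.91) and -0.92 (-1.06 to -0.76). In astrocytes it stood at 69.4 CPM and 71.2, 39.3, 29.5 and 47.4, and the ratios from day 3 on were -0.82 (-1.06 to -0.58), -1.23 (-1.47 to -1.0) and -0.55 (-0.94 to -0.18). In neuroblasts it stood at 71.3 CPM in sham and 114.0, 110.6, 63.9 and 104.9, and the ratios of days 1 and 3 were 0.68 (0.09 to 1.33) and 0.63 (0.05 to 1.28). Zc3h13 and Virma moved little in glia. The log2 ratios of Zc3h13 lay between -0.65 and 0.35 in microglia, astrocytes, oligodendrocytes and neuroblasts, and in oligodendrocytes it stood at 81.7 CPM in sham and 79.1, 94.1, 104.3 and 91.1. Virma in microglia stood at 31.8 CPM and 32.6, 23.7, 23.2 and 19.1, with ratios of 0.04, -0.42, -0.46 and -0.73.

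The eraser Alkbh5 had its lowest level at day 7 in all neural classes. The same held in endothelial cells (101.6 CPM), T cells (59.5), monocytes/macrophages (54.3) and neutrophils (64.9). Over whole libraries day 7 was the lowest too (60.3 CPM). In astrocytes Alkbh5 stood at 82.4 CPM in sham and 107.0, 52.4, 37.8 and 74.9, with ratios of 0.38 (0.18 to 0.58), -0.65 (-0.87 to -0.43), -1.12 (-1.33 to -0.91) and -0.14 (-0.45 to 0.17). In oligodendrocytes it stood at 131.9 CPM and 118.4, 79.6, 47.4 and 92.5, and the ratio at day 7 was -1.48 (-1.67 to -1.28). In neuroblasts it stood at 91.3 CPM and 97.8, 103.2, 46.7 and 78.3, with -0.97 (-1.57 to -0.32) at day 7. In oligodendrocyte precursors it stood at 178.9 CPM in sham (11 UMIs) and 74.2, 37.9 and 101.6 at days 3, 7 and 14. The day 7 library also had the largest share of mitochondrial UMIs: 12.7% of its barcodes were over 20% and left out, against 0% to 0.499% in the others. With a limit of 10% the day 7 ratios were -0.99 in astrocytes, -1.43 in oligodendrocytes and -0.91 in neuroblasts. In microglia Alkbh5 stood at 99.2 CPM in sham and 103.6, 131.7, 71.9 and 65.0, and its ratios of -0.46 at day 7 and -0.61 at day 14 were -0.06 and 0.07 under TMM scaling.

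Fto was lower than sham in oligodendrocytes at days 3, 7 and 14, at -0.78 (-1.21 to -0.37), -0.90 (-1.12 to -0.67) and -0.42 (-0.64 to -0.20). In astrocytes, whose Fto stood at 55.6 CPM in sham and 41.8 to 46.3 after injury, the ratios were between -0.41 and -0.26. Microglia held 36.2 CPM of Fto in sham and 44.2, 22.7, 27.9 and 27.3. Of the UMIs of both erasers, Alkbh5 made up 73.3% in sham microglia and 70.1%, 85.3%, 72.0% and 70.5% at days 1, 3, 7 and 14. The same share was 59.7% in sham astrocytes and 46.0% to 69.8% after injury, and 49.9% to 61.7% in oligodendrocytes. Neutrophils held the highest shares of Alkbh5 at days 1 and 14, at 85.7% (63.7% to 97.0%) and 89.7% (75.8% to 97.1%). These rest on 18 UMIs of Alkbh5 and 3 of Fto at day 1, and on 35 and 4 at day 14. At days 3 and 7 the neutrophil share was 80.8% and 65.0%.

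Other genes of m6A biology were read from lists. Of 14 m6A reader genes found in the files, 11 or 12 were measured in microglia, and 0, 1, 0 and 2 were at least 2-fold lower at days 1, 3, 7 and 14, beside 10.5%, 21.1%, 14.8% and 25.1% of all measured genes. Their median log2 ratio was 0.10, -0.19, -0.39 and -0.68, near the -0.06, -0.28, -0.37 and -0.53 of all measured genes. Igf2bp3 was 2-fold higher or more at day 3, but passed the limit on low values through its day 3 level only, so that its ratio is not read. Prrc2a stood at 111.7 CPM in sham microglia and 49.6 at day 3. At day 14 Ythdf1 and Ythdf3, cytoplasmic readers with a YTH domain, stood at 21.3 and 33.5 CPM against 45.9 and 69.1 in sham. In astrocytes the reader Hnrnpa2b1 stood at 623.1 CPM in sham and 226.5 at day 3 (-1.46, -1.55 to -1.37), and Hnrnpc at 117.0 in sham and 269.0 at day 14 (1.2, 1.0 to 1.4).

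Mat2a, which makes S-adenosylmethionine and whose transcript is a target of METTL16, stood at 266.7 CPM in sham microglia, 130.3 at day 3, 122.0 at day 7 and 91.7 at day 14. The ratio at day 14 was -1.54 (-1.64 to -1.44). At least 2-fold lower were 0 of 6 measured genes of this list at day 1, 1 of 5 at day 3, 1 of 6 at day 7 and 3 of 6 at day 14, beside the shares of all microglial genes given for the readers. In astrocytes Ahcyl1 stood at 658.3 CPM in sham and 263.3, 234.6 and 292.4 at days 1, 3 and 14. Of the other AlkB family, Alkbh1 stood at 27.6 CPM in sham oligodendrocytes and 92.5 at day 3 (1.75, 1.29 to 2.22), and Alkbh6 at 26.6 CPM in sham and 10.1, 11.3 and 12.8 at days 1, 3 and 7.

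Over the 48 sums of a class in a library, the genes with a pattern most like that of a member were named by Pearson's r on log2(CPM + 10), among 7419 genes of at least 20 CPM. The points share libraries, depth and classes, so the values are a description. Nearest to Mettl3 were Gtf3c2 (0.75), Zfp207 (0.74) and Clk3 (0.74), and nearest to Alkbh5 were 8030462N17Rik (0.78), Tomm6 (0.66) and Dcaf7 (0.65). Nearest to Fto were Csnk2a1 (0.84), Kifap3 (0.83) and Rprd1a (0.82), and among the nearest to Wtap were Ubald2 (0.72) and Atf1 (0.70).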

How the data were processed

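The deposited files hold raw UMI counts per gene and cell, made by the authors with Cell Ranger 4.0.0, per the file headers. STAR 2.5.37, Seurat 3.2.0 and the build GRCm38 are listed too, per the submitters' processing notes. Per the labels' protocols, cortex was dissociated with papain and DNase I, debris was removed on Percoll, and 5188 to 11934 cells were loaded per sample, beside 9895 to 14159 barcodes per library in the files. Library totals were 11279455 to 129161094 UMIs.

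Barcodes with at least 500 UMIs, 200 genes and at most 20% mitochondrial UMIs were kept, and the top doublet scores were removed at 0.8% per 1000 barcodes (7.90% to 10.2%), since the automatic cut marked under 0.5% of cells in 1 library. Cells were clustered with scanpy 1.11.5 (Python 3.11.15, Leiden resolution 1) without the 10 members and named from 293 markers of 20 classes. Of singly gated cells, 94.7% fell in the class of their cluster. Sums of at least 50 cells were used (48 of 70). Free RNA was not removed, and no class lacks the members, so no background share could be given for them.

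Class differences were tested with edgeR 4.0.16 in R 4.3.3, and DESeq2 1.42.0 was an alternative. Tested on simulated data for the neuroblast comparison with 16166 genes, 50% of 200 genes changed 2-fold were called and 7.41% of calls were false. Intervals are exact at 95% and cover counting error only. Measured genes had a mean of at least 10 CPM over both libraries. All members are named, and list genes are named past 2-fold. The members and lists were chosen with earlier results of these data known. A further gene with a pattern like that of Wtap is not reported here.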

Additional observations from a re-analysis of the deposited data

Results flagged for a closer look

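A pair of genes drew attention because 1 class lay above sham in all 4 injured libraries while another lay below it. Virma in neuroblasts had log2 ratios to sham of 0.75, 0.48, 0.47 and 0.38 at days 1, 3, 7 and 14, and in astrocytes -0.13, -0.58, -0.15 and -0.024. The neuroblast intervals all included 0 (9 sham UMIs), and in astrocytes only that of day 3 excluded it. Rbm15b in oligodendrocytes had 0.85, 1.25, 0.86 and 0.89, and in microglia -0.23, -0.85, -0.71 and -1.39. The oligodendrocyte intervals all excluded 0, as did the microglial ones from day 3 on. These differences between classes were not tested, and the 4 ratios of a class share its sham sum.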

How the results depend on the processing

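Beside the 32 class differences called, 18 were called with no filter on low counts (17 of the 32 among them), 20 with no library term (19 of the 32) and 18 over sums of at least 200 cells (14 of the 32, with choroid plexus epithelium left out and some classes of 1 sum), and 15 to 31 were called without 1 library. Members higher in neuroblasts numbered 6, and 3 with no filter (6 without any 1 library). Members lower in choroid plexus epithelium numbered 5, and 2 with no filter, 3 at Leiden resolution 2, 3 at 1000 UMIs per cell, 1 with DESeq2, and 1 to 5 without 1 library. Wtap in neutrophils was -0.026 over sums of at least 200 cells, where the class is the day 3 sum alone. Under TMM scaling the log2 ratio of Mettl3 was -1.77 in astrocytes at day 7, and in microglia -1.66, -1.51 and -1.64 at days 3, 7 and 14. In microglia that of Alkbh5 was 0.73, -0.062 and 0.073 on those days, Wtap 0.014 at day 3, Fto 0.030 and 0.28 at days 7 and 14, and Zc3h13 0.078 at day 14. At 1000 UMIs per cell Wtap in microglia was 0.12 at day 1. The cause was not tested. At 1000 UMIs per cell, oligodendrocyte precursors and endothelial cells could not be set against sham. No paired analysis was possible because each group is 1 library. Depth limits the sham values of small classes most, where 1 UMI was 16.3 CPM in oligodendrocyte precursors.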
